A study of Bos taurus with 96 samples.

Results

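The cytosolic ribosomal protein genes were followed over the 5 fat depots and the LD muscle of feedlot cattle. Members were the genes whose symbol is RPL or RPS followed by a number, without the RPS6K kinases, and 76 of the 10680 genes named among the tested probes met this rule. They comprised 29 proteins of the small subunit, 40 of the large subunit, 6 paralogs of subunit proteins (RPL3L, RPL22L1, RPL26L1, RPL36AL, RPS27L and RPS4Y1), and RPS19BP1, a protein that binds RPS19 and is no part of either subunit. Their 234 tested probes gave several probes for 63 genes and 1 probe for 13, and each gene was represented by its tested probe with the highest mean signal over the 96 arrays. RPS14, RPL22 and RPL34 were among the ribosomal protein genes of the reference that no probe was named for, so RPL22L1 could not be set beside the RPL22 it is a paralog of.

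A ribosome is built from a small subunit, which holds the mRNA and decodes it, and a large subunit, which joins the amino acids. Cells make the subunit proteins in matched amounts from mRNAs that begin with a pyrimidine tract, and translation of these mRNAs is raised by signalling through mTOR. A few subunit proteins have paralogs that take their place in particular tissues. The best known in muscle is RPL3L, made in skeletal muscle and heart, where it replaces RPL3 next to the site of peptide bond formation. Several ribosomal protein mRNAs are also used as reference transcripts when other genes are measured.

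The steers were Hereford, Angus or Wagyu x Angus, and those sampled for fat were about 26 months old at slaughter per the study's methods. The labels give 259 d in a feedlot for every sample. The fat came from animals on pasture after weaning, as omental (Omen), kidney (Kid), intermuscular (Inter) and subcutaneous rump fat (SC) and as fat dissected from within the LD (IMF), with 12 arrays per depot and 4 per breed. The longissimus dorsi muscle (LD), taken with its marbling fat in place, was sampled from animals on pasture (24 arrays) and from animals given a supplement after weaning (12 arrays). Some LD animals were killed at an earlier time according to the methods, and the labels do not show which, nor which arrays of different depots came from one steer. Each array received 50 ng of total RNA, so a level is a share of RNA, and fewer cells of a type and less RNA per cell cannot be told apart.

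A level is given as the log2 processed signal minus the 75th percentile of that array, and a difference between groups is a difference of mean levels. By their representative probes all 76 genes were well above background on all 96 arrays, and no spot was saturated. By mean level 74 of them lay in the top 10% of tested probes, and the median member lay at percentile 99.6. Between 74.3% (LD on pasture) and 84.0% (Omen) of probes were above background on average. Of the 96 arrays, 2 stood apart, where 1 Omen array of Angus had 5528 spots marked as outliers by the scanner and 1 IMF array of Wagyu x Angus had 2647, against at most 95 on the others. The median level of the members was 6.14 and 6.34 on these 2 arrays. Scan day followed tissue, since all IMF arrays were scanned on day 3, all Inter arrays on day 2, and 11 of 12 SC arrays on day 1, so that for IMF, Inter and Omen against SC the scan day and the depot could not be told apart within days.

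As a set, the members took a smaller share of the array signal in LD than in fat. Their representative probes held 6.76% ± 0.27 of the summed signal in Omen (SD, n = 12), 6.59% ± 0.35 in Kid, 6.73% ± 0.46 in Inter, 6.37% ± 0.19 in SC and 6.15% ± 0.62 in IMF. In LD the share was 4.85% ± 0.31 on pasture (n = 24) and 4.77% ± 0.51 with supplement (n = 12). The median member level showed no such step. Its group means lay between 6.62 in Inter and Omen and 6.83 in LD, with an SD from 0.07 in SC to 0.16 in Omen.

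**Figure D1:**
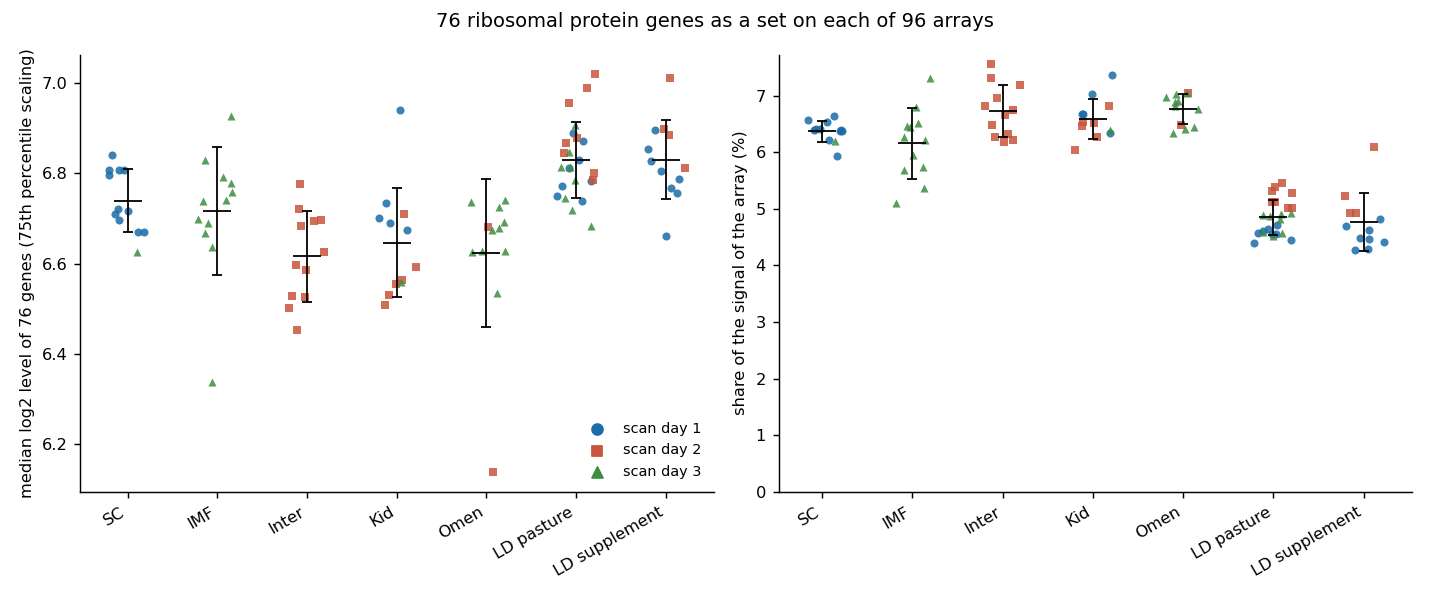
The 76 genes as a set on each of 96 arrays, by tissue group on the horizontal axis and with scan days in colour and marker shape: the median level of the members (log2 signal minus 75th percentile), and the percent of the summed array signal held by their representative probes. The LD arrays hold the lowest signal shares (4.85% and 4.77% on average) and group mean levels of 6.83, and 1 Omen and 1 IMF array lie below the rest of their groups in median level.

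How the set compared between tissues therefore depended on what the arrays were scaled to. In LD on pasture against SC the median difference of the members was 0.13 with the 75th percentile, against 0.05 for all 34227 probes. It was -0.42 after quantile normalization, -0.38 when each array was scaled to its total signal, and 0.06 with no scaling. In Inter against SC it was -0.14 with the 75th percentile, where all probes had -0.05, but 0.16 after quantile normalization, 0.11 with the total signal, 0.86 with no scaling and 0.93 when arrays were centred on the E1A spike-in, an RNA added in equal amount to every labelling. Kid went from -0.10 to 0.13 and Omen from -0.13 to 0.14 between the 75th percentile and quantile normalization. In IMF against SC the median was -0.08 with the 75th percentile, 0.55 with no scaling and -0.63 with the spike-in. All probes shifted with the members under most settings, by 0.63 in IMF and by 1.0 in Inter when scaling was left out. Quantile normalization was different, because it shifted all probes in Inter by 0.04 and the members by much more. A direction for the whole set was thus not settled in any comparison, and the differences below are given on the 75th percentile scale, with the genes that kept their direction under all 10 scalings named.

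**Figure D2:**
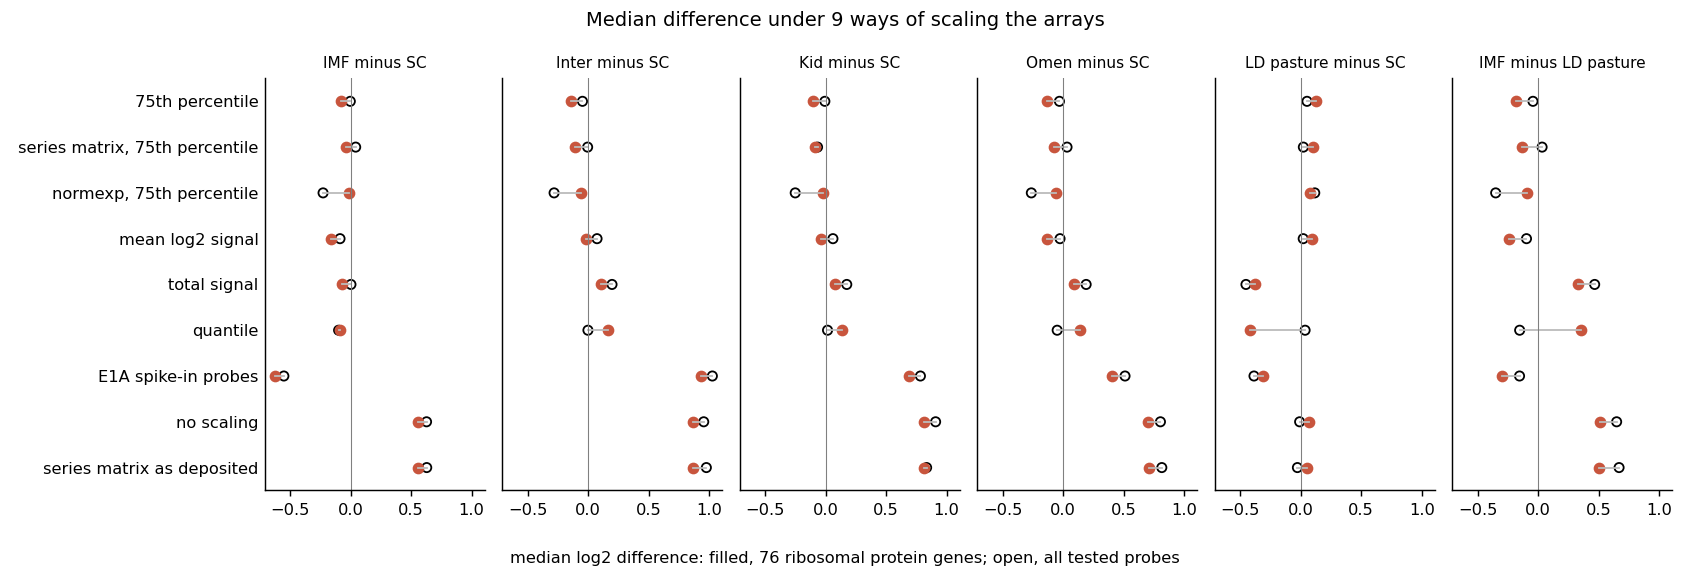
Median log2 difference of the 76 genes (filled) and of all 34227 probes (open) under 9 ways of scaling the arrays, one panel per comparison. In Inter, Kid and Omen against SC the filled points lie left of 0 with the 75th percentile and right of it after quantile normalization, and in LD against SC they lie at 0.13 and -0.42.

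With the 75th percentile most genes of the set lay close to its median in the fat depots. Relative to the members' own median, 68 of 76 genes lay within 0.25 in IMF against SC, 68 in Inter, 74 in Kid and 70 in Omen, compared with 43 in LD on pasture against SC and 51 in IMF against LD. Genes at 0.5 or more from that median numbered 3, 2, 1, 0, 11 and 8 in the same order.

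LD on pasture differed from SC in 57 of the 76 genes, with 39 higher and 18 lower (limma, adjusted p under 0.05), which is 75% of the members against 82.9% of all probes tested, of which 42.7% were higher and 40.2% lower. Of the small subunit 12 were higher and 6 lower of 29, and of the large subunit 23 and 9 of 40. All 6 paralogs passed the test, with 3 higher and 3 lower. Of these, 11 were called in the same direction under all 10 scalings. RPL3L, RPS27L, RPL10 and, by its brightest probe, RPL22L1 were higher in LD, and RPL3, RPS4Y1, RPS4X, RPL35A, RPL11, RPS6 and RPL17 were lower.

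RPL3L and RPL3 moved apart by the largest amounts. RPL3L ranged from -5.71 to -3.79 in SC (median -5.30) and from 4.59 to 5.36 in LD on pasture (median 5.07). The groups were 10.14 ± 0.13 apart (SE, limma adjusted p = 9.6e-40), a 1127-fold difference in signal. RPL3, the large subunit protein that RPL3L replaces, ranged from 6.07 to 6.33 in SC (median 6.16) and from 3.21 to 4.01 in LD on pasture (median 3.51). It was lower in LD by 2.67 on the log2 scale, which is 6.38-fold (SE 0.07, limma adjusted p = 1.0e-28). No LD array came near an SC array for either gene. The 5 probes of RPL3 gave differences between -2.75 and -2.37, so the value did not rest on one probe. Among the 8 LD and 11 SC arrays scanned on day 1 the differences were 10.26 for RPL3L and -2.82 for RPL3, and within breeds RPL3 lay between -2.87 and -2.52.

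**Figure D3:**
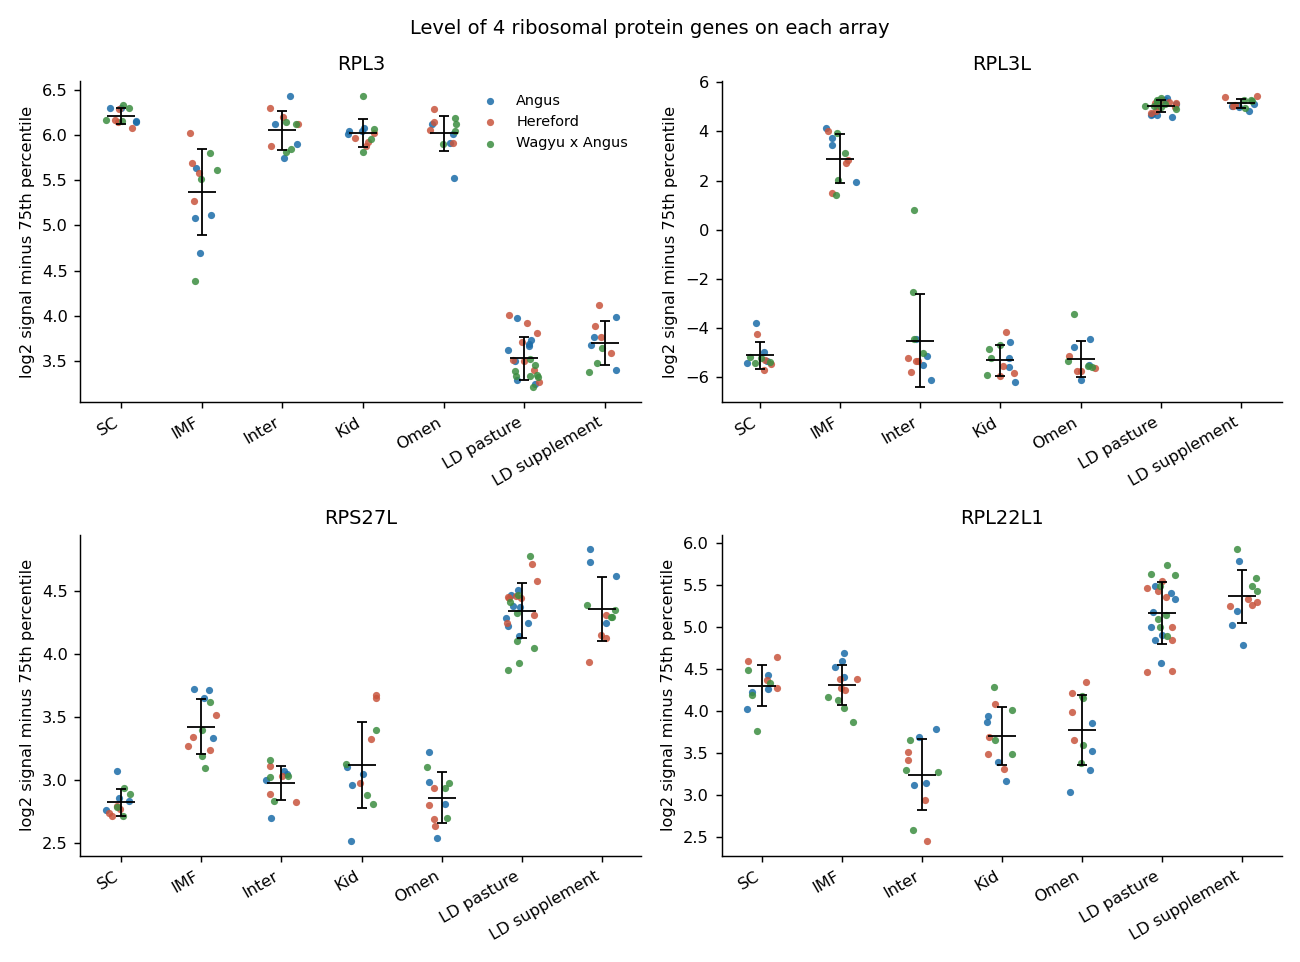
Level of 4 ribosomal protein genes on each array (log2 signal minus 75th percentile), by tissue group with breeds in colour. RPL3L is at most -3.42 on every SC, Kid and Omen array, between 1.40 and 4.12 in IMF and 4.59 or more in LD, with 1 Inter array at 0.79 in between, while RPL3 runs the other way.

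The other paralogs followed in smaller steps. RPS27L, a paralog of the small subunit protein RPS27 and a target of p53, ranged from 2.71 to 3.07 in SC and from 3.87 to 4.78 in LD on pasture, a difference of 1.52 ± 0.07 (limma adjusted p = 1.6e-21) with no overlap. RPS27 itself was among the members that varied least, with group means between 6.11 and 6.25 in all 7 groups. RPS4Y1 and RPS4X, close copies of one small subunit protein, were both lower in LD. RPS4Y1 ranged from 5.21 to 5.59 in SC and from 4.43 to 4.96 in LD on pasture, and RPS4X from 7.03 to 7.45 and from 6.55 to 7.01. Their differences were -0.75 ± 0.05 and -0.52 ± 0.05. RPL26L1 and RPL36AL were lower by 0.24 and 0.19 on the log2 scale with the 75th percentile, and their calls were not kept under all scalings. Probes of these gene pairs may bind both transcripts, and the files do not resolve this.

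The probes of RPL22L1 disagreed. By its brightest probe it was higher in LD on pasture, from 4.46 to 5.74 against 3.76 to 4.64 in SC, a difference of 0.86 ± 0.12. The other 3 probes gave -0.17, -0.54 and -1.16, and the mean of its probes gave -0.26. The direction of RPL22L1 thus turned with the choice of probe, and its values in the fat depots below carry the same limit.

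Among the subunit proteins without a paralog on the array, RPL10 stood highest in LD relative to SC. RPL10, which joins the large subunit late in its assembly, ranged from 6.44 to 6.88 in SC and from 7.29 to 7.86 in LD on pasture (difference 0.80 ± 0.05, limma adjusted p = 4.2e-17). RPL24 and RPL15, both of the large subunit, were each higher by 0.68, and RPS7 and RPL36A by 0.55, though RPS7 and RPL36A turned after quantile normalization. With quantile normalization 6 members were called higher and 63 lower, and with the total signal 6 and 60, so the balance of higher and lower members turned with the scale. These counts stand without the share of all probes under the same scaling, so they describe the scale and no trait of the members. RPL35A was lower by 0.50 on the log2 scale (6.85 to 7.16 in SC, 6.34 to 6.77 in LD). RPL11, which forms a particle with RPL5 and the 5S rRNA and binds MDM2, was lower by 0.42, and RPL17 by 0.33. RPS6, the substrate of the S6 kinases, ranged from 7.12 to 7.42 in SC and from 6.64 to 7.06 in LD, a difference of -0.36 ± 0.05 (limma adjusted p = 6.2e-09). In all, 14 genes lay higher and 6 lower in LD with no overlap between the 12 SC and 24 LD arrays, where 39.1% of all probes did not overlap.

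In IMF against SC, 7 members were higher and 22 lower, or 38.2% of the members, against 64.2% of all probes (31.2% higher, 33% lower). The small subunit had 1 higher and 8 lower, the large subunit 4 and 11, and the paralogs 2 and 2. RPL3L ranged from 1.40 to 4.12 in IMF (median 2.97) and was 8.0 ± 0.31 above SC (limma adjusted p = 8.9e-17), and it was the only member called in one direction under all 10 scalings. RPS27L (3.09 to 3.72) was higher by 0.60 ± 0.08 and RPL10 (6.89 to 7.16) by 0.31 ± 0.06, and neither overlapped SC. RPL3 ranged from 4.38 to 6.02 in IMF, with no overlap with SC, and lay lower by 0.84 on the log2 scale (SE 0.14, limma adjusted p = 9.6e-06). These 4 were the members without overlap, while 14.9% of all probes had none. RPL24 and RPS7 were higher by 0.25 and 0.23. RPS19BP1 was lower by 0.50, RPL11 by 0.29, and RPS4Y1 and RPL12 by 0.27. With no scaling RPL11, RPL12, RPS19BP1 and RPS4Y1 turned, to 0.34, 0.36, 0.13 and 0.36, and RPL3 was at -0.21 and not called (adjusted p = 0.36). With the spike-in RPL10, RPL24 and RPS7 turned, to -0.24, -0.30 and -0.32, and RPS27L was at 0.05 and not called (adjusted p = 0.70). Without the IMF array of Wagyu x Angus that stood apart, 13 members were higher. All IMF arrays and 1 SC array were scanned on day 3, and with scan day as a block over all 96 arrays RPL3L was 7.96, RPS27L 0.69, RPL10 0.30 and RPL3 -0.86 in IMF relative to SC. Of the 29 calls 17 were kept under this block and 12 were lost.

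Muscle fibre markers moved with these genes in IMF, and their part in the differences was not tested. The summed level of 16 muscle fibre markers measured of 19 listed (myosins, actin, troponins, creatine kinase and others, as linear signal over the 75th percentile) was 3.63 to 21.2 on SC arrays, 1199 to 3577 on IMF arrays and 5034 to 7026 on LD arrays on pasture, and all 16 were higher in IMF than in SC. The sum of 14 adipocyte markers averaged 1886 in SC, 689 in IMF and 76.3 in LD on pasture. Markers of other cell types moved as well in IMF against SC, with all 6 macrophage markers lower (sum 15.1 to 46.2 in SC and 3.12 to 12.03 in IMF), all 6 smooth muscle markers higher (20.1 to 315 and 90.1 to 918), 5 of 6 Schwann cell markers higher and 1 lower (27.1 to 60.01 and 6.45 to 118), and 3 of 5 endothelial markers lower (19.3 to 32.7 and 11.04 to 25.2). Over the 12 IMF arrays the level of RPL3L followed the muscle marker sum (Pearson r = 0.98, Spearman rho = 0.99, permutation test, adjusted p = 3.0e-05 for both, where the unadjusted p was the smallest that 100000 resamples can give). RPL3 went the opposite way, with r = -0.81 (permutation p adjusted over the 3 relations 0.0015) and rho = -0.90 (0.00022). RPS27L went up with the sum (r = 0.87, permutation adjusted p = 0.00052). Without the 2 arrays farthest from the median marker sum, r was 0.97, -0.73 and 0.90 for RPL3L, RPL3 and RPS27L. The arrays share one scan day, and the relation was not computed within breeds, which had 4 arrays each. All levels share the scaling of their array with the marker sum.

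**Figure D4:**
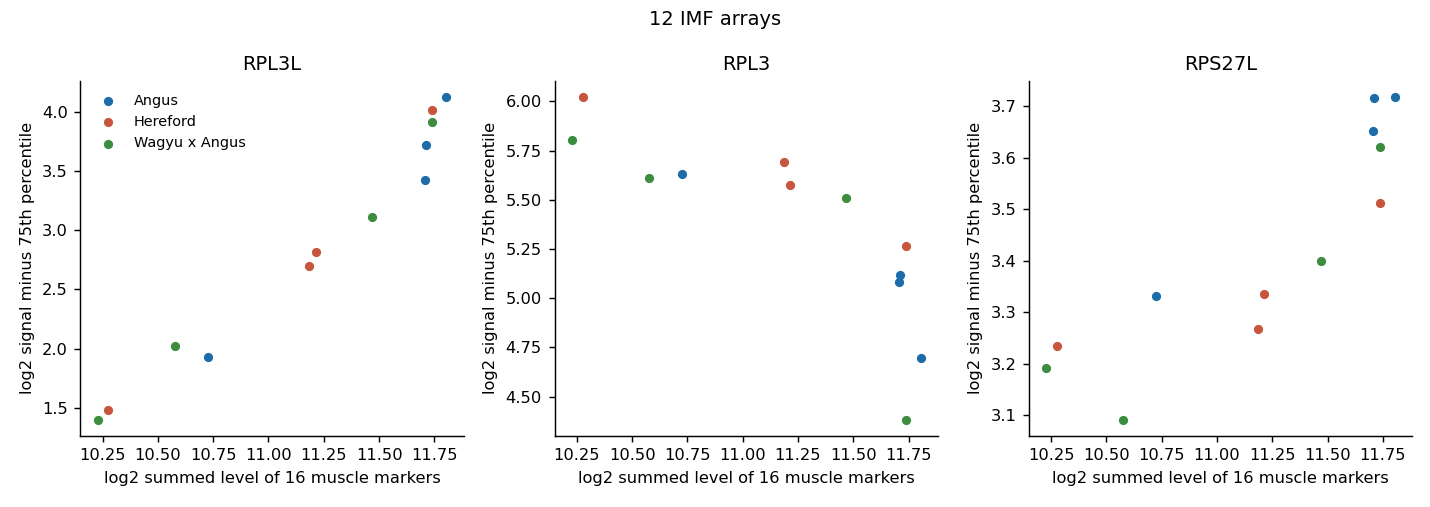
Levels of 3 genes (log2 signal minus 75th percentile) against the log2 summed level of 16 muscle markers on the 12 IMF arrays, with breeds in colour. RPL3L and RPS27L climb with the marker sum (r = 0.98 and 0.87) and RPL3 drops (r = -0.81).

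RPL3L, RPL3 and RPS27L had levels in IMF between those in SC and in LD. Against LD on pasture, 7 members were higher and 47 lower in IMF, or 71.1% of the members against 75.3% of all probes (36% higher, 39.3% lower). Without the IMF array of Wagyu x Angus that stood apart, 12 were higher. RPL3 was higher by 1.83 ± 0.12 (limma adjusted p = 4.7e-16), and RPS4Y1 and RPS4X were each higher by 0.48. These 3 were higher under all 10 scalings. RPS6 was higher by 0.32 and RPL35A by 0.29. RPL3L was lower by 2.14 on the log2 scale (SE 0.20), also under all 10 scalings. RPS27L was lower by 0.92, RPL22L1 by 0.85 on its brightest probe and by 0.17 as the mean of its probes, RPS19BP1 by 0.78 and RPL28 by 0.67, where RPL28 turned with no scaling to 0.023. RPL3 was higher and 14 genes lower with no overlap of the 12 IMF and 24 LD arrays, against 19.5% of all probes. The comparison shares the IMF arrays with the one against SC and the LD arrays with LD against SC. Within scan day 3 (12 IMF and 8 LD arrays) RPL3 was 1.88 and RPL3L -2.22. There 8 members were higher and 40 lower, while 73.6% of all probes were called. With quantile normalization 63 members were higher and 4 lower, and with the total signal 60 and 5, given without the share of all probes.

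The other 3 depots shared the SC arrays as their reference and showed shifts of many members by small amounts. Inter had 2 members higher and 37 lower than SC (51.3% of the members against 48.8% of all probes, 21.6% higher and 27.2% lower). Kid had 1 higher and 22 lower (30.3% against 41.7%, with 19.4% higher and 22.2% lower). Among the 5 Kid and 11 SC arrays scanned on day 1, none was called higher and 3 lower, where 30.1% of all probes were called, and the members' median difference was -0.03, with RPL22L1 at -0.36, RPL13A at -0.21 and RPL3 at -0.09. Omen had 0 higher and 30 lower (39.5% against 45.7%, with 20.5% higher and 25.2% lower), and 35 members passed an unadjusted p of 0.05 there. The lower members were spread over both subunits, with 13 of the small and 22 of the large subunit in Inter, 7 and 14 in Kid, and 12 and 16 in Omen. After quantile normalization 47, 34 and 38 members were called higher and 2, 1 and 2 lower in Inter, Kid and Omen, so these counts had no direction that held across scales. The share of all probes called after quantile normalization is not given here.

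Cell type markers also moved between these depots and SC, and their part in the shifts was not tested. Of the 14 adipocyte markers 1 was higher and 8 lower in Inter, 4 were lower in Kid, and 1 was higher and 9 lower in Omen. Their sum lay between 1436 and 2350 in SC, 725 and 1546 in Inter, 757 and 1923 in Kid, and 970 and 1624 in Omen. Of the 16 muscle fibre markers 6 were higher in Inter, 5 were higher and 1 lower in Kid, and 7 were lower in Omen. The muscle sum was 3.92 to 972 in Inter, 5.01 to 22.8 in Kid and 3.42 to 7.19 in Omen. Of 8 B and T cell markers 1 was higher and 2 lower in Inter, and 3 were higher and 1 lower in Kid. In Omen 5 were higher and 2 lower, and the sum of the 8 was 6.63 to 13.3 against 10.5 to 12.6 in SC. Of 5 mesothelial markers 3 were lower in Inter and 3 in Kid, and 2 were higher and 2 lower in Omen.

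**Figure D5:**
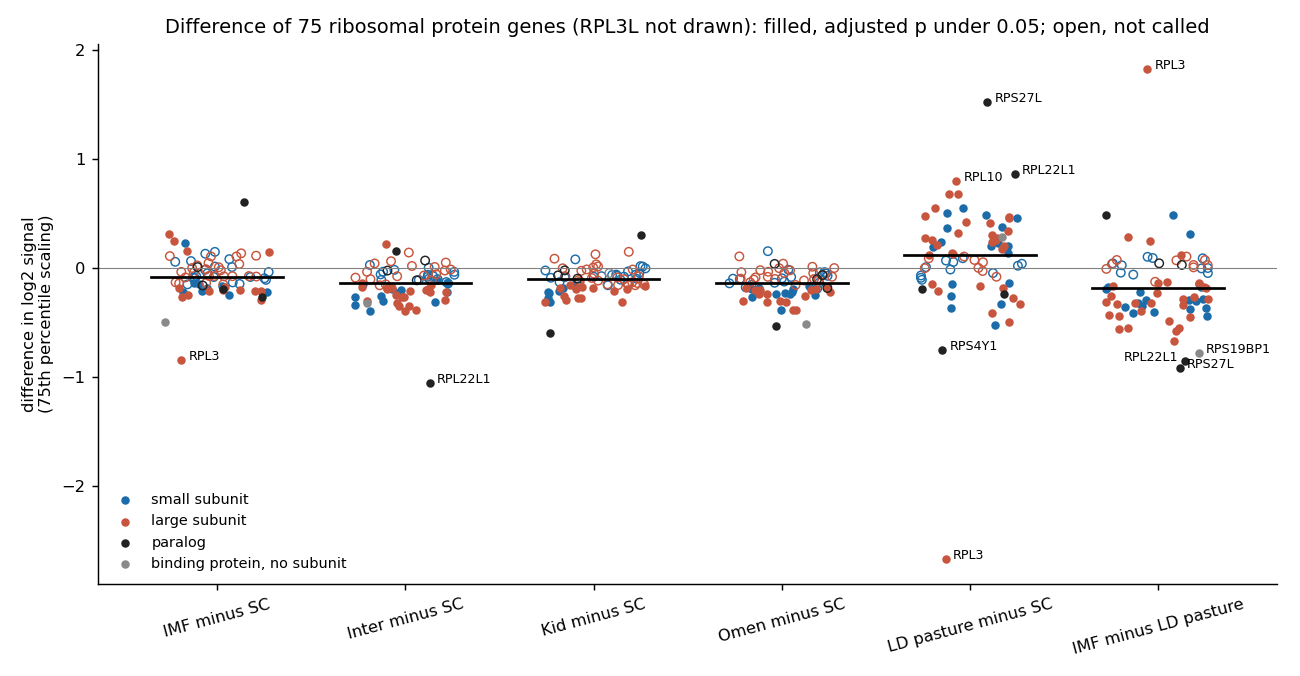
Difference in log2 signal (75th percentile scaling) of 75 ribosomal protein genes in 6 comparisons, by role, with genes passing an adjusted p of 0.05 filled and the rest open. RPL3L, with differences up to 10.14, is not drawn. RPL3 lies far below the other members in LD against SC at -2.67 and lowest in IMF against SC at -0.84.

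RPL13A, RPS2 and RPL36 were among the lowest members in all 3 depots, and only RPL22L1 and, in Omen, RPS19BP1 lay further below SC. RPL13A, which also acts outside the ribosome in silencing of inflammatory mRNAs, ranged from 7.28 to 7.69 in SC, 6.93 to 7.24 in Inter, 6.94 to 7.52 in Kid and 6.74 to 7.26 in Omen. Its differences from SC were -0.40 ± 0.05, -0.31 ± 0.07 and -0.39 ± 0.06 (limma adjusted p = 2.9e-06, 0.00092 and 1.6e-05). RPS2, of the small subunit, ranged from 7.27 to 7.72 in SC and from 6.93 to 7.18 in Inter, and its differences were -0.39, -0.32 and -0.38. RPL36 had -0.38, -0.31 and -0.38. In Inter the arrays of RPL11, RPL13A, RPL39 and RPS2 all lay below the SC arrays (background 3.75% of probes), in Omen those of RPL11, RPL13A, RPL39 and RPS21 (3.97%), and in Kid no member was without overlap (3.52%). With no scaling all of the genes named here but RPL22L1 in Inter turned direction, and RPL13A in Inter for one was at 0.61. With quantile normalization RPL22L1 in the 3 depots and RPS19BP1 in Omen (-0.42, adjusted p = 0.00026) were still called lower, the other genes named here stayed below 0 and were not called, and RPL13A was at -0.03 in Inter (adjusted p = 0.61). Within breeds RPL13A in Inter was at -0.45 for Hereford, -0.41 for Wagyu x Angus and -0.33 for Angus.

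The differences varied with the brightness of the probes. In Inter against SC the 132 member probes with a mean level above 6 had a median difference of -0.14, while the 74 probes between 4 and 6 had 0.02. In Omen the bright probes had -0.13, the 74 probes between 4 and 6 had -0.07 and the 14 probes below 2 had -0.18. Of the 158 other probes of the members with several probes, 120 gave a difference above that of the brightest probe of the same gene in Inter, 122 in Kid and 118 in Omen, compared with 93 in IMF and 94 in LD on pasture. For RPS2 in Inter the brightest probe gave -0.39 and its other 4 probes between -0.22 and 0.05. Whether the brightness of a probe plays a part in these counts was not tested. With the mean of all probes of a gene, Inter had 9 members higher and Kid 4 higher and 12 lower.

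RPS27L was called higher in Inter under all 10 scalings. It was higher by 0.15 ± 0.06 in Inter (adjusted p = 0.030) and by 0.30 ± 0.10 in Kid (adjusted p = 0.024), where it was again called under all 10 scalings. In Kid the difference was 0.65 for Hereford, 0.22 for Wagyu x Angus and 0.02 for Angus, and none of the 3 passed the test on its own 8 arrays. With scan day as a block the Inter value of RPS27L was -0.03 and the Kid value 0.21 (adjusted p = 0.061), and with the spread estimated from all 60 fat arrays the Inter call was lost (adjusted p = 0.17). In Omen the difference of RPS27L was 0.04 (adjusted p = 0.69), and no member was called in one direction under all 10 scalings.

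RPL22L1 was the lowest member in all 3 depots by its brightest probe. It ranged from 3.76 to 4.64 in SC, from 2.46 to 3.79 in Inter, from 3.17 to 4.29 in Kid and from 3.04 to 4.35 in Omen. The differences were -1.06 ± 0.14, -0.60 ± 0.12 and -0.53 ± 0.14, all of which turned when arrays were centred on the spike-in, and they were as the mean of its probes -0.25 in Inter and -0.20 in Kid. With scan day as a block the Omen difference was -0.14 (adjusted p = 0.54). The other 3 probes lay between -0.01 and 0.05 in Inter. RPS19BP1 was lower in Omen by 0.52 on the log2 scale, with 1.62 to 2.28 against 2.19 to 2.93 in SC, and with no scaling it was at 0.32.

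RPL3 and RPL3L were at similar levels in SC, Inter, Kid and Omen. RPL3 had group means of 6.05, 6.02 and 6.02 against 6.21 in SC. The differences were -0.16 ± 0.07 (adjusted p = 0.068), -0.19 ± 0.06 (0.015) and -0.19 ± 0.07 (0.025). With quantile normalization RPL3 was at 0.02 in Kid and 0.07 in Omen. Leaving out the spike-in and unscaled values, the Kid call was kept in 6 of 15 other settings and the Omen call in 5 of 16. RPL3L passed the test in none of the 3. In Inter its difference was 0.60 ± 0.54 (adjusted p = 0.37), with 2.50 for Wagyu x Angus, -0.25 for Hereford and -0.43 for Angus. One Inter array of Wagyu x Angus had RPL3L at 0.79 and a muscle marker sum of 972, where the median Inter array had 7.10.

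Among the depots other than SC, IMF differed from Inter in 29 members, with 23 higher and 6 lower (background 62.7%, 32.8% higher and 30% lower). It differed from Kid in 14 higher and 9 lower (55.8%, 28.4% and 27.4%), and from Omen in 16 higher and 1 lower (56.2%, 27.8% and 28.4%). Fewer members separated the other pairs. Inter had 4 lower and none higher than Kid, 11 at an unadjusted p under 0.05 (15.4%, 7.58% and 7.84%). Inter had 1 higher and 1 lower than Omen (13.6%, 5.87% and 7.69%), and Kid had 1 higher and none lower than Omen, 7 at an unadjusted p under 0.05 (12.1%, 6.34% and 5.78%). Over all 5 depots with breed in the fit, 56 of the 76 genes depended on depot (73.7%, against 87.2% of all probes), led by RPL3L, RPS2, RPL22L1 and RPL3. With scan day as a block 27 did, and centred on the mean log2 signal 31, where the share of all probes was not computed.

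The members that differed least between tissues were of both subunits. RPS12 had the narrowest range of 7 group means, 0.13, from 7.20 in LD on pasture to 7.34 in SC, followed by RPS27 (0.14). The range was under 0.5 for 49 genes over the 7 groups and for 71 over the 5 fat depots. The median SD within a group was 0.14. Genes often used as references spread over this scale, with RPL30 at 0.24, RPS9 at 0.27, RPL4 at 0.34, RPS18 at 0.41, RPS15 at 0.48, RPL19 at 0.54 and RPL13A at 0.84. At the other end stood RPL3L with 10.4, RPL3 with 2.67, RPL22L1 with 2.12, RPS27L with 1.54 and RPS2 with 0.90. These ranges hold for the 75th percentile scale. Centred on the median of the members, RPL30 had the narrowest range (0.12), with RPS27 at 0.18 and RPS12 at 0.31.

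Other genes of translation were counted on the same scale. Of all probes 42.7% were higher and 40.2% lower in LD on pasture against SC, 36% and 39.3% in IMF against LD, 31.2% and 33% in IMF against SC, 21.6% and 27.2% in Inter, 19.4% and 22.2% in Kid, and 20.5% and 25.2% in Omen, and the counts of each list stand beside these shares. The 6 measured stalk and other ribosome genes outside the naming rule, such as those of the acidic stalk, had no higher gene in the fat depots, with 6 lower in Inter and in Omen, 5 in Kid and 4 in IMF, and 3 and 3 in LD on pasture against SC. Of 37 translation factors 30 were higher and 3 lower in LD on pasture against SC, with a median of 1.05, where EEF1A1, the elongation factor isoform of most tissues, was lower by 2.23 on the log2 scale. EEF1A2, its isoform in muscle and brain, was higher in LD and, by 8.67, in IMF against SC. The 75 mitochondrial ribosomal proteins had 69 higher and 4 lower in LD on pasture against SC, with a median of 1.18, and 2 higher and 72 lower in IMF against LD. Of 39 ribosome biogenesis genes 24 were higher and 8 lower in LD against SC, and of 13 genes of S6 kinase and mTOR signalling 10 and 2. In Inter, Kid and Omen biogenesis genes were higher in 20, 25 and 16 and lower in 5, 3 and 6, while the mitochondrial ribosomal proteins had 16 higher and 33 lower in Inter, 24 and 7 in Kid, and 9 and 43 in Omen. In IMF against SC the translation factors had 19 higher and 5 lower, the mitochondrial ribosomal proteins 30 and 10, the biogenesis genes 11 and 10, and the signalling genes 5 and 2. The medians of these lists describe them only, and no list was tested against another.

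The diet after weaning was compared in LD with breed in the fit. The labels do not mark the LD animals killed earlier, so diet and time of kill could not be told apart. None of the 76 members differed between supplement (12 arrays) and pasture (24 arrays) by limma, where 11.2% of all probes were called (5.65% higher, 5.6% lower), and 5 members had an unadjusted p under 0.05. All differences lay between -0.11 and 0.20. RPL22L1 had the largest, 0.20 ± 0.12 (adjusted p = 0.28), followed by RPL28 with 0.17 ± 0.06 (adjusted p = 0.066) and RPL3 with 0.15 ± 0.08 (adjusted p = 0.22). RPL3L ranged from 4.84 to 5.45 with supplement and from 4.59 to 5.36 on pasture, and the 2 diets overlapped. Scaling changed this picture as well, with 45 members called higher when arrays were centred on the spike-in and 16 called lower with no scaling. These counts too stand without the share of all probes. Within scan day 1 (8 arrays against 8) none was called, against 11.6% of all probes. Within day 2 (4 against 8) 1 was called higher, where 6.1% of all probes were called. Cell type markers moved with supplement, with 8 of 14 adipocyte markers lower (sum 28.7 to 48.1 against 27.9 to 174 on pasture), 4 of 5 endothelial markers higher (6.50 to 10.91 against 4.34 to 10.94) and 3 of 16 muscle fibre markers higher (4436 to 7563 against 5034 to 7026), and their part in the values of the members was not tested. Per breed, the members' median difference was -0.07 for Hereford and 0.10 for both Wagyu x Angus and Angus.

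No member of the fat depots passed the test for breed. Over the 60 fat arrays with depot in the fit, 0 of 76 depended on breed by limma (2 at an unadjusted p under 0.05), where 3.20% of all probes did, and no pair of breeds had a called member. The pairs had 1 member (Hereford against Angus), 2 (Wagyu x Angus against Angus) and 3 (Wagyu x Angus against Hereford) at an unadjusted p under 0.05, with 0.567%, 0.754% and 3.44% of all probes called (0.324%, 0.348% and 1.51% higher, and 0.242%, 0.406% and 1.94% lower). In LD 9 of 76 depended on breed (11.8%, against 25.3% of all probes), among them RPL36A, RPS21, RPS24, RPL36AL, RPL11, RPL3, RPL24 and RPL27A. Wagyu x Angus had 8 members lower than Angus and none higher (background 8.99% lower and 10.2% higher), among them RPS21 by 0.27, RPS24 by 0.24, RPL36A by 0.22 and RPL11 by 0.17 on the log2 scale. Against Hereford, Wagyu x Angus had 2 lower, RPL3 by 0.30 and RPL27A by 0.17, where 4.25% of all probes were lower. Hereford had 2 members higher than Angus, RPL28 (0.21) among them, and RPS21 (-0.27) lower, where 5.49% of all probes were higher and 4.67% lower. Cell type markers also differed between breeds in LD, and their part was not tested. Of the 16 muscle fibre markers 8 were higher in Wagyu x Angus and 7 in Hereford than in Angus, and of the 14 adipocyte markers 8 were lower in Hereford than in Angus (median -0.90), while 1 was higher and 1 lower in Wagyu x Angus. With scan day as a block 1 member depended on breed in LD, with the slide as a block 0, and with no scaling 76. The share of all probes was not computed under these settings, so the counts cannot be read as particular to the members.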

How the data were processed

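RNA was hybridised by the authors to one-colour Agilent 4x44K bovine arrays. The deposited intensity values are the scanner's background-subtracted processed signals, which the authors left unscaled between arrays, and the deposited log2 values per probe are unscaled too (they matched log2 of median signal minus median background, with a floor of 1, to within 8.3e-05). Outlier-marked spots were left out, spots of a probe averaged, and log2 values taken relative to each array's 75th percentile over 43653 probes that are not controls. Symbols came from RefSeq accessions and the study's probe tables, and named 62.7% of the 34227 tested probes.

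Groups were compared with limma 3.58.1 (lmFit, eBayes) in R 4.3.3 on the arrays of the 2 groups, with breed in the fit for diet, depot and breed together in fat, and Benjamini-Hochberg adjustment over all tested probes at 0.05. These p-values measure the spread between arrays, and arrays of one steer in 2 depots were treated as independent. The IMF relations used permutation of 100000 resamples, two-sided. The methods were tested on simulated data.

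Alternatives were other scalings, background correction, probe choice, scan day, slide and replicate blocks, the methods' equal-variance t-test, single breeds and arrays left out. Scaling to total signal or to the members, and leaving out the 2 arrays that stood apart, were added after seeing the data. The members and lists were chosen with earlier results of these data known. Genes named are the 5 highest and 5 lowest called members of a comparison, the genes of a fixed list of paralogs with their parent genes, RPS6 and common reference genes, and others beside them were chosen after their values were seen. Sequences and coordinates are not given here. Some members are counted but not reported by name here.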

Additional observations from a re-analysis of the deposited data

Results flagged for a closer look

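In Omen of Wagyu x Angus, the highest of 4 arrays had RPL3L at -3.42, far above the other arrays of that group, which lay between -5.57 and -5.32. In IMF of Angus, the lowest of 4 arrays had RPS27L at 3.33, where the others lay between 3.65 and 3.72. The check covered RPL3, RPL3L, RPS27L, RPL22L1 and the median level of the members, each by tissue group and breed. In 2 of these 104 cases 1 array lay apart, and chance alone picks about 1 in 20. The other members were not checked in this way.

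The difference between diets in LD depended on breed for 4 of the 76 members by limma's interaction test, where 16.2% of all probes did. RPL35 (adjusted p = 0.0093) was at 0.28 for supplement minus pasture in Angus, 0.12 in Wagyu x Angus and -0.20 in Hereford. RPL13 (adjusted p = 0.028) had 0.12, -0.12 and -0.32, RPS19 (adjusted p = 0.039) 0.23, -0.02 and -0.13, and RPS27L (adjusted p = 0.041) 0.28, 0.09 and -0.32 in the same order. Each breed had 4 arrays with supplement and 8 on pasture. None of the 4 was called with scan day or slide as a block.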

How the results depend on the processing

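The scaling of the arrays decided the counts of higher and lower members, and the counts are given here as higher and lower, with LD standing for LD on pasture where fat is compared with it. With no scaling they were 72 and 0 in IMF against SC, 75 and 0 in Inter, in Kid and in Omen, 15 and 8 in LD against SC, 62 and 1 in IMF against LD, and 16 lower with supplement, with 76 members depending on breed in LD and 0 on diet by breed. The deposited log2 values gave 73 and 0 in IMF, 75 and 0 in Inter, 74 and 0 in Kid and Omen, 16 and 7 in LD, 62 and 1 in IMF against LD, 9 lower with supplement, and 76 and 0 in the tests of breed and of diet by breed in LD. Centred on the spike-in they were 1 and 73 in IMF, 75 and 0 in Inter and Kid, 31 and 0 in Omen, 4 and 42 in LD, 3 higher in IMF against LD and 45 higher with supplement, with 28 for breed and 10 for diet by breed in LD. Quantile normalization gave 47 and 2 in Inter, 34 and 1 in Kid, 38 and 2 in Omen, 6 and 63 in LD, 63 and 4 in IMF against LD, 1 lower with supplement and 33 for breed in LD. The total signal gave 33 and 3 in Inter, 18 and 2 in Kid, 24 and 5 in Omen, 6 and 60 in LD, 60 and 5 in IMF against LD, 1 lower with supplement and 34 for breed in LD. Centring on the mean log2 signal gave 4 and 41 in IMF, 7 and 15 in Inter, 2 and 9 in Kid, 9 lower in Omen, 31 for depot in fat and 18 for breed in LD. Centring on the median of the 76 members gave 12 higher in IMF, 8 and 17 in Inter, 6 and 9 in Kid, 5 and 16 in Omen, 23 higher in IMF against LD, and 1 for breed in fat. Normexp background correction with an offset of 50, before the 75th percentile, gave 11 and 13 in IMF, 5 and 24 in Inter, 5 and 10 in Kid, 1 and 19 in Omen, 12 higher in IMF against LD, 37 for breed and 0 for diet by breed in LD. The deposited log2 values minus their 75th percentile gave 11 higher in IMF, 1 in Omen and 11 in IMF against LD. The causes were not tested. Member counts under these alternatives, here and above, mostly stand without the share of all probes called. They are not read as particular to the members.

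The mean of all probes of a gene gave 13 higher in IMF, 9 in Inter, 2 in Omen, 4 and 12 in Kid, and 1 lower with supplement. All non-control probes gave 2 for diet by breed, the spread of all 60 fat arrays gave 1 higher in Inter, and the methods' t-test gave 2 higher with supplement. With the slide as a random block 1 was higher in Inter and 0 in Kid, with 13 lower in Kid, and 0 depended on breed and 0 on diet by breed in LD. With scan day as a block the counts were 27 for depot in fat, 1 for breed in LD and 0 for diet by breed. Without the 2 arrays that stood apart, 13 were higher in IMF, 1 in Omen and 12 in IMF against LD. With one array left out, higher counts ran from 6 to 13 in IMF, 1 to 2 in Inter, 1 to 1 in Kid, 0 to 1 in Omen, 39 to 41 in LD, 7 to 12 in IMF against LD and 0 to 1 with supplement, and lower counts from 21 to 29, 35 to 41, 16 to 31, 24 to 32, 16 to 19, 47 to 48 and 0 to 0. The higher ends of IMF came without the IMF array that stood apart, that of Omen without the Omen array that stood apart, that of supplement without 1 Angus array given supplement (slide 1, position 1), and the single higher gene in Inter without 1 Wagyu x Angus array (slide 5, position 3).

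Replicate numbers in the labels repeat positions on slides and recur within groups, so they pair nothing. With the number as a replicate block the counts were 7 and 23 in IMF, 2 and 37 in Inter, 1 and 24 in Kid, 0 and 23 in Omen, 39 and 18 in LD, 7 and 47 in IMF against LD and 0 and 0 with supplement.

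Centred on the spike-in these turned. For IMF against SC RPL10 was at -0.24, RPL22L1 at -0.54, RPL24 at -0.30 and RPS7 at -0.32. In Inter against SC RPL11 was at 0.75, RPL13A at 0.68, RPL22L1 at 0.014, RPL3 at 0.92, RPL36 at 0.69, RPL39 at 0.72 and RPS2 at 0.68. In Kid against SC RPL13A was at 0.48, RPL22L1 at 0.19, RPL3 at 0.60, RPL35A at 0.50, RPL36 at 0.48, RPL3L at 0.60 and RPS2 at 0.47. In Omen against SC RPL11 was at 0.22, RPL13A at 0.15, RPL22L1 at 0.0076, RPL3 at 0.35, RPL36 at 0.16, RPL39 at 0.23, RPS19BP1 at 0.020, RPS2 at 0.15 and RPS21 at 0.27. In LD against SC RPL13A was at -0.018 and RPS19BP1 at -0.16. With no scaling these values turned. For IMF against SC RPL11 was at 0.34, RPL12 at 0.36, RPS19BP1 at 0.13 and RPS4Y1 at 0.36. In Inter against SC RPL11 was at 0.68, RPL13A at 0.61, RPL3 at 0.84, RPL36 at 0.62, RPL39 at 0.65 and RPS2 at 0.61. In Kid against SC RPL13A was at 0.60, RPL22L1 at 0.32, RPL3 at 0.73, RPL35A at 0.62, RPL36 at 0.60, RPL3L at 0.72 and RPS2 at 0.60. In Omen against SC RPL11 was at 0.52, RPL13A at 0.45, RPL22L1 at 0.31, RPL3 at 0.65, RPL36 at 0.46, RPL39 at 0.53, RPL3L at 0.71, RPS19BP1 at 0.32, RPS2 at 0.45 and RPS21 at 0.57. In IMF against LD RPL28 was at 0.023. In the table of log2 values as deposited, which is not scaled, these turned. For IMF against SC RPL11 was at 0.37, RPL12 at 0.34, RPS19BP1 at 0.11 and RPS4Y1 at 0.34. In Inter against SC RPL11 was at 0.72, RPL13A at 0.62, RPL3 at 0.85, RPL36 at 0.63, RPL39 at 0.66 and RPS2 at 0.61. In Kid against SC RPL13A was at 0.62, RPL22L1 at 0.32, RPL3 at 0.75, RPL35A at 0.66, RPL36 at 0.63 and RPS2 at 0.60. In Omen against SC RPL11 was at 0.55, RPL13A at 0.42, RPL22L1 at 0.26, RPL3 at 0.70, RPL36 at 0.49, RPL39 at 0.48, RPL3L at 0.66, RPS19BP1 at 0.27, RPS2 at 0.43 and RPS21 at 0.56. In IMF against LD RPL28 was at 0.069. As the mean of all probes of a gene these turned. For IMF against SC RPL22L1 was at -0.42. In LD against SC RPL22L1 was at -0.26. In supplement against pasture RPL35 was at -0.16. With scan day as a block over all 96 arrays RPS27L turned. In Inter against SC RPS27L was at -0.032. After quantile normalization these turned. In Kid against SC RPL3 was at 0.025. In Omen against SC RPL3 was at 0.069. In LD against SC RPL13A was at -0.23, RPL36A at -0.075, RPS19BP1 at -0.047, RPS2 at -0.17 and RPS7 at -0.028. Scaled to the total signal these turned. In Omen against SC RPL3 was at 0.032. In LD against SC RPL13A was at -0.084, RPS19BP1 at -0.22 and RPS2 at -0.015.

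Signal over background did not limit the members, since all lay well above background on all 96 arrays. The number of arrays limited the precision.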
